A study of Homo sapiens with 9 samples.

Results

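The ARNT knockdown was examined as the 3 RNA-seq libraries of 786-O cells labelled shARNT set against the 3 labelled shControl, which were 6 of the 9 libraries of the series and were chosen by their labels alone. 786-O is an established human clear cell renal cell carcinoma line without functional VHL, so that all 9 libraries share a background in which HIF2α (EPAS1) escapes degradation at normal oxygen. The other 3 libraries came from the same cells with a hairpin against BMAL1 (shBMAL1) and served as a second knockdown for comparison. Every hairpin was carried by a lentiviral pLKO.1 vector, and infected cells were selected and then kept in puromycin. ARNT was targeted by 1 hairpin only, so an effect of that hairpin on other transcripts and an effect of ARNT loss cannot be told apart. The labels call the 3 libraries of a group biological replicates and do not say how the cultures were separated, so the p-values measure the spread between these libraries.

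ARNT is the common partner of several transcription factors of the bHLH-PAS family. It pairs with HIF1α or HIF2α to activate hypoxia genes, and with the aryl hydrocarbon receptor (AHR) to activate genes of xenobiotic metabolism. The HIF dimers bind hypoxia response elements with the core ACGTG or GCGTG, and in cells without VHL this arm is active without low oxygen. The comparison asks which genes follow ARNT in such cells, first within and then beyond the hypoxia response.

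Values are normalised read counts, which are deposited read counts divided by a size factor per library, and changes are log2 fold changes of shARNT over shControl from DESeq2 with their standard errors (SE). A gene is called lower or higher at a Benjamini-Hochberg adjusted p under 0.1, and named genes below with an adjusted p come from that fit. The 6 libraries held 34426734 to 35444731 reads. The share of reads from mitochondrial genes was 5.46% to 7.14% in shControl and 7.59% to 8.74% in shARNT, and the exact two-sided permutation p of 0.1 was the smallest that 3 against 3 libraries can give. Genes with a read numbered 20068 to 20196 in shControl and 20334 to 20449 in shARNT. The 10 most counted genes took 7.31% to 8.24% and 8.99% to 9.48% of reads. Both measures gave the same permutation p. Renal identity genes were present in both groups, with PAX8, a kidney lineage factor, at 10004 ± 516 in shControl and 10031 ± 239 in shARNT (SD, n = 3). Of the 7 renal carcinoma line markers, 2 were called lower and 2 higher, beside 19.0% and 16.5% of all genes tested. Their log2 fold changes ran from −0.23 to 1.01. The defining markers of endothelial cells and leukocytes were at or near 0. The 5 endothelial markers summed to 8.05 to 22.0 counts in the control libraries and 7.80 to 17.9 in the shARNT libraries. Of the 6 leukocyte markers, PTPRC, CD3E and LYZ each had a mean under 1 count in both groups, and CD68, which lysosomes of many cells also hold, was not called. The 6 fibroblast markers summed to 552.8 to 599.5 counts in the control libraries and 465.2 to 531.3 in the shARNT libraries. All 4 tested had a log2 fold change below 0. Only COL1A1 was called lower, at an adjusted p of 0.0993, a call lost without any 1 of the 6 libraries.

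ARNT itself was counted at 2187, 2551 and 2318 in the 3 shControl libraries and at 1239, 1238 and 1199 in the 3 shARNT libraries. The groups did not overlap, and ARNT transcript remained at 52.2% of control (log2 fold change −0.94, SE 0.07, adjusted p 8.81e-35). It was also lower than in shBMAL1 in the direct comparison of the knockdowns (−0.72, SE 0.08, adjusted p 2.94e-19). The transcripts of the related ARNT2, BMAL1 and BMAL2 did not rise. ARNT2, its closest relative, fell from 805 ± 34.2 to 532 ± 34.7 (−0.59, SE 0.10), and BMAL2 (ARNTL2) fell by 0.26 on the log2 scale. BMAL1 (ARNTL) also fell by 0.26, at an adjusted p of 0.0294, and its call was lost in 2 of the 6 fits that left out 1 library. The paper's immunoblots of 786-O cells with these hairpins reported efficient ARNT depletion, HIF2α protein not reduced and a slight rise in BMAL1 protein. Among the partners of ARNT, EPAS1 was −0.23 (SE 0.06) and AHR 0.38 (SE 0.07), while HIF1A, which encodes HIF1α, rose in every shARNT library, from 2594, 2708 and 2499 to 3476, 3453 and 3451. CLOCK, the partner of BMAL1, was not called (−0.11, SE 0.07), nor were AHRR and NPAS2. HIF3A, NPAS4 and SIM2 were at 0 in all 6 libraries. The low-count NPAS1 (1.05, SE 0.39) and SIM1 (0.33, SE 0.16, adjusted p 0.0984) were called higher, and in SIM1 the call was lost without any 1 library. Of the 12 family members tested, 5 were lower and 4 higher, and 2 stayed higher without shControl replicate 2, shControl replicate 3 or shARNT replicate 3.

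Across all genes, 2878 of 15164 tested were called lower (19.0%) and 2496 higher (16.5%), and these shares are the background for the counts below. Most changes were small, since the change reached 2-fold in 258 of the lowered and 174 of the raised genes. In the direct comparison of shARNT with shBMAL1, in which no control library takes part, 3139 of 18181 genes were lower in shARNT (17.3%) and 3270 higher (18.0%). This second comparison matters because both knockdowns were read against the same 3 control libraries. For a gene that lay at the same level in both knockdowns, a change in both and an unusual level in the control libraries cannot be told apart.

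**Figure D1:**
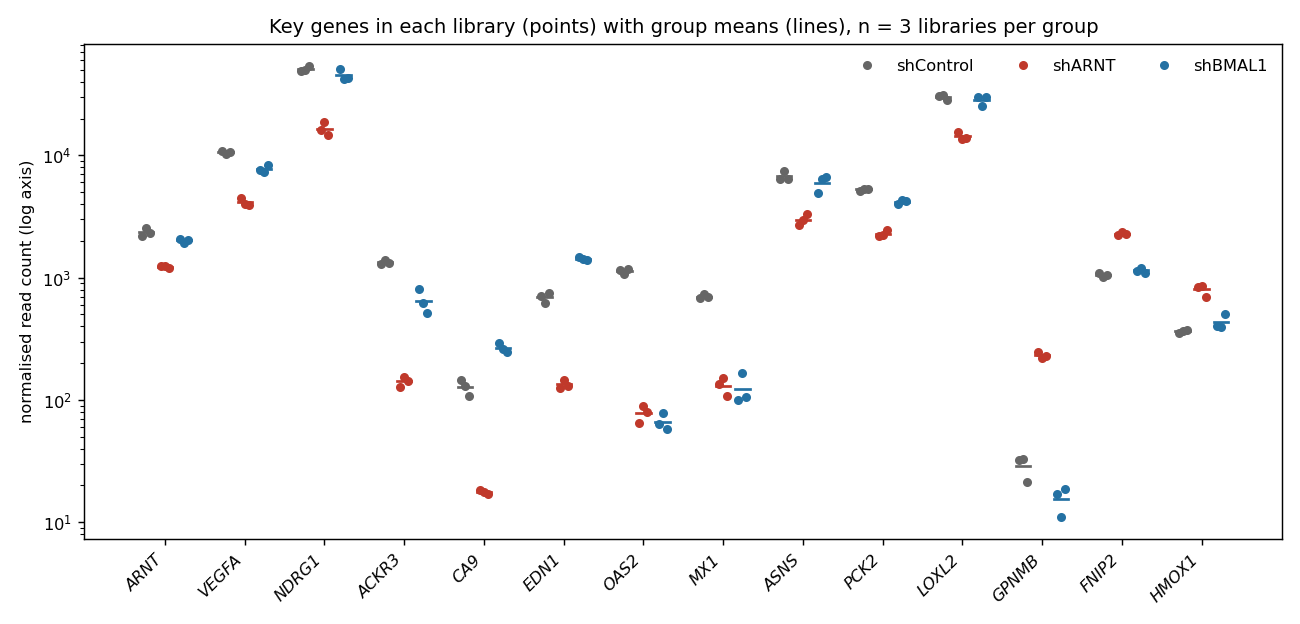
Normalised read counts (log axis) of 14 genes in each of the 9 libraries, grey for shControl, red for shARNT and blue for shBMAL1, with a line at each group mean. ACKR3, CA9 and EDN1 are lowest in the shARNT libraries, OAS2 and MX1 are low in both knockdowns, and GPNMB, FNIP2 and HMOX1 are highest in the shARNT libraries.

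The hypoxia response set the scale. VEGFA, the angiogenic growth factor, was counted at 10822, 10255 and 10719.7 in shControl and at 4465, 4017 and 3913 in shARNT. NDRG1, a stress-responsive growth regulator, went from 48787, 49835 and 53267 to 16246, 18594 and 14778. In both genes every shARNT library lay far below every control library (−1.36, SE 0.06, and −1.61, SE 0.07). ACKR3, a scavenging chemokine receptor, was counted at 1286, 1403 and 1329 in shControl and at 128, 155 and 143 in shARNT (−3.23 on the log2 scale, SE 0.11). CA9, the carbonic anhydrase of acid export, fell from 146, 129 and 108 to 18.5, 17.7 and 16.9, and stood at 265 ± 22.8 in shBMAL1. EDN1, the vasoconstrictor endothelin, was split in the same way, at 703, 623 and 755 in shControl, 126, 145 and 131 in shARNT and 1486, 1411 and 1391 in shBMAL1. For both CA9 and EDN1, shARNT lay below and shBMAL1 above the controls, and the direct difference was −3.90 (SE 0.26) and −3.41 (SE 0.11). Of 19 tested secreted or surface HIF targets, 14 were lower and 1 higher, IGFBP1 (0.57, SE 0.17), a binder of insulin-like growth factors, with a list median of −1.14. Intracellular HIF targets moved less, with 23 of 33 lower, 4 higher and a median of −0.40. On the scale of log2(normalised count + 0.5) minus the control mean, the median of the secreted targets was −1.15, −1.18 and −1.08 in the shARNT libraries and −0.74, −0.93 and −0.70 in the shBMAL1 libraries, low in both. Both lists stand against a median of 0.0028 over all genes tested. In the direct comparison, 11 of 19 secreted and 19 of 34 intracellular targets were also lower in shARNT than in shBMAL1, and 2 and 8 were higher.

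Glycolytic enzymes followed at a smaller scale, with 11 of 17 lower, 2 higher and a median of −0.20. In the shBMAL1 libraries the median of these genes was −0.18, −0.30 and −0.23 on the scale above, and the direct comparison called 5 lower and 6 higher in shARNT. HK2, LDHA, ALDOC and ENO2 are counted among the intracellular HIF targets as well, so the lists share members. HK2, the inducible hexokinase, fell from 1388 ± 95.6 to 611 ± 71.9 (−1.18, SE 0.10). The platelet phosphofructokinase PFKP (−0.78, SE 0.04) and HK1 (−0.72, SE 0.05) fell as well. Other HIF targets went the opposite way. KDM3A, a histone demethylase, rose from 1426, 1510.5 and 1378 to 2124, 1961 and 2144 (0.53, SE 0.07), and PFKFB3, a regulator of glycolytic flux, rose by 0.24. EGLN3, the prolyl hydroxylase that HIF itself induces, fell from 4162, 4049 and 4067 to 1940.0, 1955 and 1917 (−1.08, SE 0.06).

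Promoter letters for 3 of the lowered HIF targets are shown because they hold the ACGTG core of the response element, in capitals, which appears as CACGT where it lies on the opposite strand. The windows are read in the direction of the gene from RefSeq promoters on GRCh38.p14, and they lie at chr9:35673897-35673926 for CA9, chr2:74834066-74834095 for HK2 and chr5:122078341-122078370 for LOX, a collagen cross-linking enzyme described below.
CA9: ctcgtttccaatgCACGTacagcccgtaca
HK2: caatgggcgtgcgCACGTcactgatccgga
LOX: ttccaatcgcattACGTGaacaaatagctg
Within the 250 bases before the start, ACGTG on either strand was found in 61.5% of 26 promoters of intracellular HIF targets, in 47.1% of 17 glycolytic promoters, in 23.2% of the promoters of genes tested and in 18.7% of all 27305 promoters in the table. The secreted targets, which were lowered the most, held it in 21.4% of 14 promoters, near the share of all genes tested. The core GCGTG was found in 64.3% of the promoters of secreted targets, 13 of 26 of those of intracellular targets, 29.4% of glycolytic ones and 44.8% of those of genes tested. Promoters of all lowered genes held ACGTG in 21.1% of cases and those of all raised genes in 26.1%, and for GCGTG the shares were 43.4% and 45.3%. Among genes changed at least 2-fold, ACGTG was found in 16.4% of lowered and 16.8% of raised promoters, and GCGTG in 30.4% and 28.8%.

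**Figure D2:**
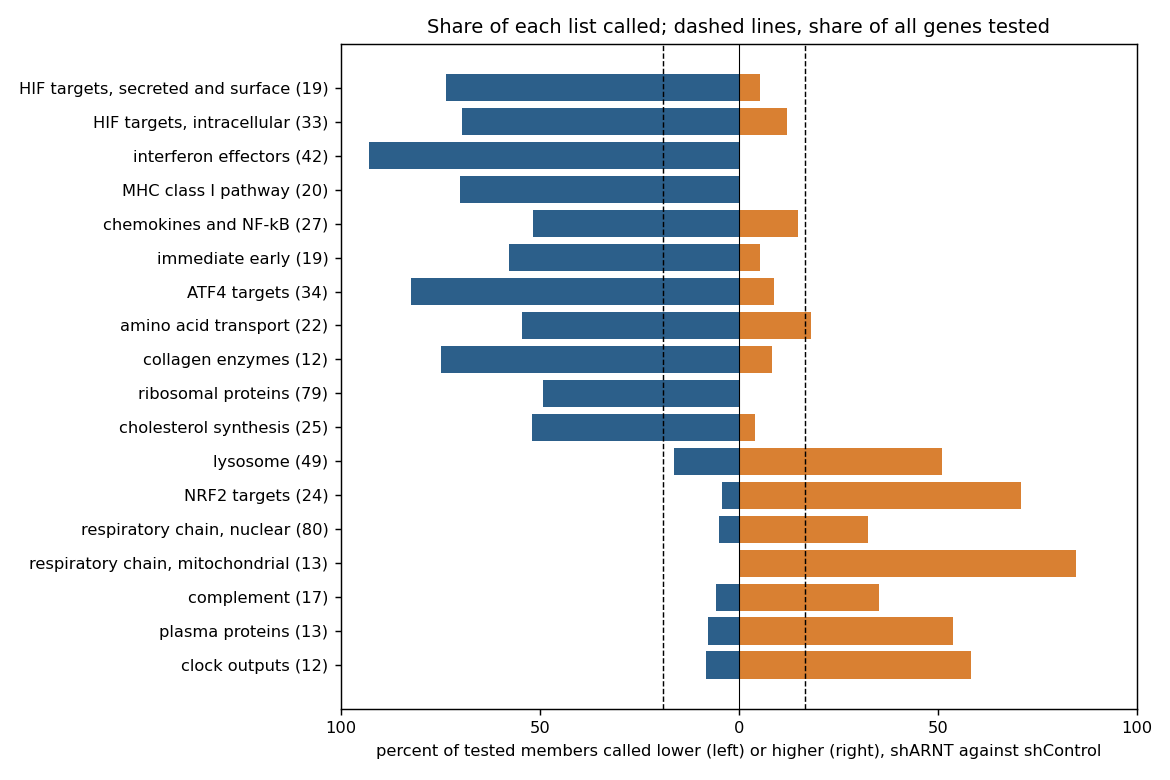
Percent of the tested members of 18 gene lists called lower (bars to the left) or higher (bars to the right) in shARNT against shControl, with the number tested in brackets and dashed lines at 19.0% and 16.5%, the shares of all genes tested. Interferon effectors and ATF4 targets extend furthest to the left, and the mitochondrial subunits and NRF2 targets furthest to the right.

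Beyond the hypoxia genes, the list median farthest from 0 was that of the interferon response, the set of antiviral genes that type I interferon induces through a complex holding STAT2 and IRF9. Of 42 antiviral effectors tested, 39 were called lower and 0 higher, 12 of them by at least 2-fold, with a median of −0.64, and leaving out any 1 library left 37 to 39 calls. OAS2, an oligoadenylate synthetase that senses double-stranded RNA, was the most lowered gene that met the naming rule, at 1164, 1078 and 1183 in shControl and 64.3, 89.4 and 79.5 in shARNT (−3.87, SE 0.13, adjusted p 6.84e-181). The control libraries lay more than 10-fold above the shARNT libraries in this gene. OAS1 of the same family fell by 2.53 on the log2 scale, and so did the antiviral GTPase MX2, while MX1 fell by 2.41. EPSTI1 was counted at 311, 279 and 253 and then 37.0, 39.3 and 53.7, and IFI27 at 606, 639.8 and 672 and then 102, 96.2 and 110.3.

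The regulators of this response moved unevenly. IRF7, the factor that amplifies interferon production, fell from 221, 215 and 259 to 77.0, 62.8 and 80.5 (−1.65, SE 0.19). IRF9, the DNA-binding subunit of the interferon-activated complex, fell by 0.85, as did the RNA sensor RIG-I (DDX58). STAT2 fell by 0.19 only. The receptor chain IFNAR1 rose (0.21, SE 0.07). Of 23 tested receptors, sensors and factors, 16 were lower and 3 higher, with a median of −0.23. The leukocyte markers PTPRC, CD3E and LYZ were at or near 0 in these libraries, as given above.

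The antiviral genes were low in the other knockdown as well. OAS2 stood at 63.5, 77.6 and 57.8 in the shBMAL1 libraries, against 64.3, 89.4 and 79.5 in the shARNT libraries, and MX1 at 124 ± 36.1 against 131 ± 21.8 in shARNT. The direct comparison called neither (OAS2 0.23, SE 0.27, adjusted p 0.58, and MX1 0.08, SE 0.23, adjusted p 0.845). Over the 42 effectors it called 5 lower, or 3 without shBMAL1 replicate 2 or any 1 of the shARNT libraries, and 13 higher in shARNT, with a median of 0.10. In 35 of the 42 every one of the 6 knockdown libraries lay below every control library, an order found in 12.8% of all genes tested.

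**Figure D3:**
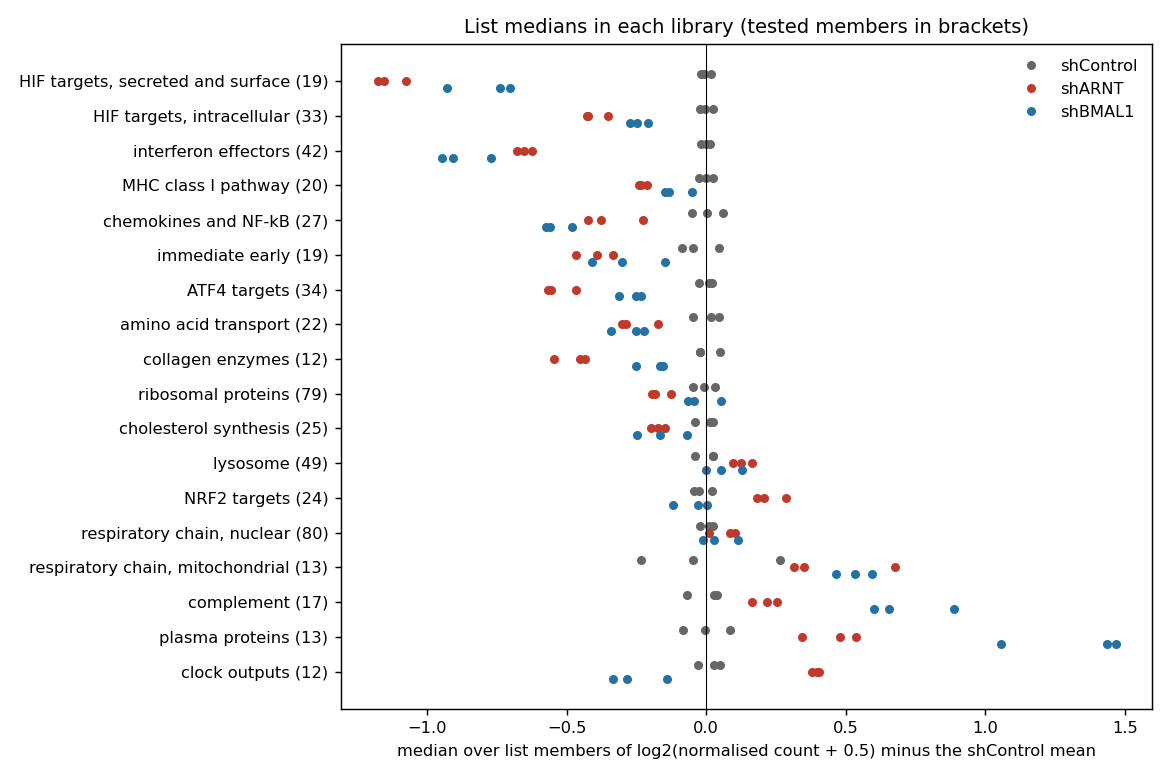
Median over the tested members of each list of log2(normalised count + 0.5) minus the shControl mean, 1 point per library, with shControl in grey, shARNT in red and shBMAL1 in blue. The shARNT points of the ATF4 list and of collagen enzymes lie below those of both other groups, the NRF2 and clock points lie above them, and the interferon points of both knockdowns lie to the left of the controls.

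The interferon-stimulated response element, searched as GAAANNGAAA on both strands, was found in 57.1% of 35 promoters of tested effectors, in 2.43% of those of genes tested and in 3.07% of all promoters. Among promoters of all lowered genes the share was 3.42%, and among those lowered at least 2-fold 7.02%. The windows of 4 lowered genes are printed with the element in capitals, or its reverse complement, to show the letters these genes share. They lie at chr13:42992272-42992301 for EPSTI1, chr14:94110618-94110647 for IFI27, chr6:32853813-32853842 for TAP1 and chr6:33314079-33314108 for TAPBP.
EPSTI1: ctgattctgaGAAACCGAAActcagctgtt
IFI27: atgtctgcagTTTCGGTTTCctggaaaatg
TAP1: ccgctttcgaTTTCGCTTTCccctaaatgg
TAPBP: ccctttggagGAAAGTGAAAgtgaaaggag

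TAP1 and TAPBP belong to the MHC class I pathway, which loads peptides for display to T cells and which interferon also induces. In this list 14 of 20 genes were lower and 0 higher, with a median of −0.25, and 43.8% of 16 promoters held the response element. TAP1, a subunit of the peptide transporter, was counted at 4766, 4527 and 4755 in shControl and 3047, 3254 and 3336 in shARNT (−0.54, SE 0.06). TAPBP, which bridges the transporter to MHC class I, went from 12764 ± 852 to 8846 ± 354 (−0.53, SE 0.06). Its relative TAPBPL set shARNT apart from the other knockdown, at 697, 797 and 770.3 in shControl, 477, 506 and 449 in shARNT and 1182, 1084 and 1061 in shBMAL1. The direct difference of TAPBPL was −1.21 (SE 0.10, adjusted p 1.06e-32), and 10 of the 20 genes were lower and 5 higher in that comparison. NLRC5, the transactivator of MHC class I genes, was not called (−0.06, SE 0.09).

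Inflammatory cytokines were lowered in part. Of 27 tested genes of the list of chemokines, cytokines and NF-κB subunits, 14 were lower and 4 higher, with a median of −0.32, and without the subunits 11 of 23 were lower. CSF2, the granulocyte-macrophage growth factor, fell from 93.6, 81.0 and 130.4 to 24.4, 14.7 and 20.9 (−2.34, SE 0.33), and CXCL8, a neutrophil chemokine, from 157, 172 and 187 to 65.3, 68.7 and 68.6 (−1.35, SE 0.21). Neither group overlapped the other in these genes. IL6 fell by 1.01, while IL18 rose by 0.92 (SE 0.16). The change farthest from 0 in the list was a rise, in IL1B, from 7.04, 1.00 and 8.09 to 64.3, 69.7 and 47.7 (adjusted p 2.56e-10), a gene of low counts named after its values were seen. The NF-κB subunit genes NFKB1 and NFKB2 fell by 0.30 and 0.44, and RELA was not called (−0.04, SE 0.06). Immediate early genes, which also respond to handling of the cells, showed 11 of 19 lower and 1 higher with a median of −0.37, led by FOSL1 (−0.96, SE 0.13), an AP-1 subunit, and by the phosphatase DUSP1 (−0.76, SE 0.07). The part of handling in the cytokine values was not tested. Against shBMAL1, 3 of 30 tested genes of the cytokine list were lower and 12 higher in shARNT, IL18 among the latter (1.63, SE 0.18).

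Lower in shARNT than in both other groups were many targets of ATF4, the factor of the integrated stress response that drives amino acid synthesis, uptake and one-carbon metabolism. Of 34 tested genes of the ATF4 list, which holds ATF4, ATF5 and a pair of upstream kinases besides the targets, 28 were lower and 3 higher, with a median of −0.51, and 27 or 28 were called lower whichever library was left out. The 30 tested targets alone gave 26 lower and 2 higher, with a median of −0.57. The shBMAL1 libraries lay below the controls as well, though less far. The median of the list, on the scale of log2(normalised count + 0.5) minus the control mean, was −0.57, −0.56 and −0.47 in the shARNT libraries and −0.31, −0.25 and −0.23 in the shBMAL1 libraries. ASNS, asparagine synthetase, was counted at 6363, 7425 and 6410.2 in shControl, 2694, 2953 and 3307 in shARNT and 4925, 6393 and 6614 in shBMAL1. The shARNT libraries lay below all 6 others, at −1.17 against shControl (SE 0.08, adjusted p 2.48e-49) and also below shBMAL1 in the direct comparison (adjusted p 1.36e-20). ALDH1L2, a mitochondrial enzyme of folate metabolism, showed the same order, with 565, 588 and 596 in shControl, 239, 250.4 and 208 in shARNT and 420.0, 574 and 576 in shBMAL1. PCK2, which is not in the ATF4 list but in that of the citric acid cycle, makes phosphoenolpyruvate in mitochondria, and it fell from 5138, 5345 and 5316 to 2177, 2235 and 2467 (−1.20, SE 0.06) and was −0.86 (SE 0.07) in the direct comparison. STC2, a secreted glycoprotein, fell by 1.43 (SE 0.08), and it is also counted among the secreted HIF targets, as DDIT4 is among the intracellular ones.

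ATF4 transcript itself fell from 19230.5, 18466 and 18997 to 15079.7, 13199 and 14336 (−0.41, SE 0.05), and did not separate the knockdowns (−0.11, SE 0.06, adjusted p 0.212). The kinase genes EIF2AK4 (GCN2) and EIF2AK3 (PERK), which signal to ATF4, were −0.25 (SE 0.05, called) and −0.14 (SE 0.07, adjusted p 0.106, not called). ATF5 and GDF15, which the same pathway can induce, rose, ATF5 from 186, 175 and 238 to 347, 321 and 330.0 and GDF15 from 2239 ± 193 to 3410.0 ± 96.7. In the direct comparison 22 of the 30 targets were lower in shARNT and 3 higher, with a median of −0.32. The direct counts stand against 17.3% and 18.0% of all genes.

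Amino acid transporters gave 12 of 22 lower, 4 higher and a median of −0.27, but 7 of the lower ones, SLC7A11 and SLC7A5 among them, are also in the ATF4 list. The other 15 gave 5 lower and 4 higher. SLC7A11, the cystine importer, fell from 1907, 2114 and 1891 to 1119, 1046 and 1164 (−0.83, SE 0.08). SLC7A5, the main importer of large neutral amino acids, fell from 33615 ± 2279 to 19643 ± 866 (−0.77, SE 0.06). SLC38A5 was lower than in either other group (−0.83, SE 0.06, and −1.13, SE 0.09). SLC43A2, another transporter of large neutral amino acids, rose from 216, 216 and 236 to 518, 531 and 506, while it stayed at 240.3 ± 45.6 in shBMAL1. Chaperones, folding enzymes and regulators of the endoplasmic reticulum gave 12 of 23 lower and 2 higher, led by ERO1A, an oxidase of disulfide formation and a known HIF target (−0.66, SE 0.06), and by MANF (−0.56, SE 0.07).

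**Figure D4:**
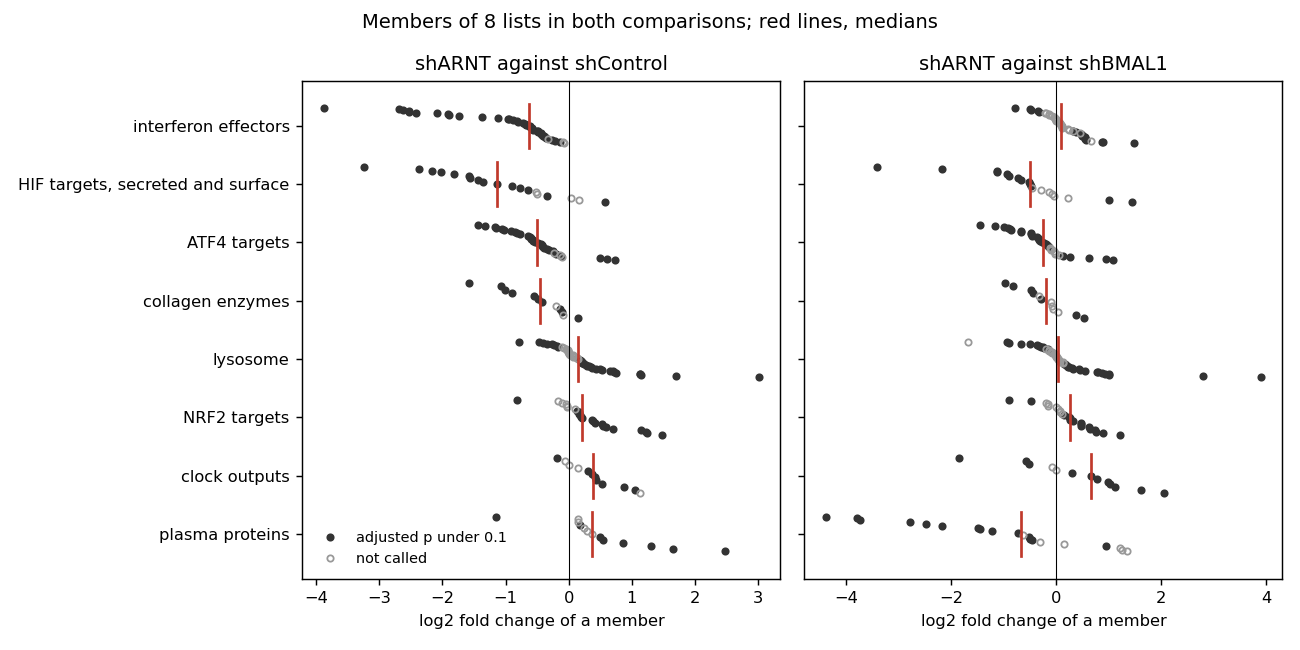
Log2 fold changes of the tested members of 8 lists (points, filled where the adjusted p was under 0.1) in shARNT against shControl (left) and shARNT against shBMAL1 (right), with red lines at the list medians. The interferon effectors lie left of 0 against shControl and on both sides of 0 against shBMAL1, whereas most ATF4 targets lie left of 0 and most NRF2 targets right of 0 in both panels.

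Lysosomal genes were called higher more often than lower. The MiT factors TFEB, TFE3 and MITF are the known activators of these genes through an extended E-box, the CLEAR element. Of 49 tested genes for hydrolases, membrane proteins and MiT-associated regulators, 25 were higher and 8 lower, with a median of 0.15, and without 1 library the higher calls numbered 22 to 25 and the lower ones 5 to 7, the 5 without shControl replicate 1. GPNMB, a lysosomal glycoprotein, was the most raised gene by the naming rule, at 32.2, 33.0 and 21.2 in shControl and 247, 219 and 229.6 in shARNT (3.01, SE 0.24, adjusted p 8.56e-35). It did not rise in the other knockdown, with 16.9, 11.1 and 18.6 counts, and the direct difference was 3.90 (SE 0.28). FNIP2, a partner of folliculin in nutrient signalling at the lysosome, showed the same contrast, with 1087, 1017 and 1049 in shControl, 2236, 2369 and 2282 in shARNT and 1144, 1200.3 and 1092 in shBMAL1. ATP6V0D2, a subunit of the acidifying proton pump, was raised (1.13, SE 0.24), and stood at 18.9 ± 11.7 in shBMAL1.

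The hydrolases GUSB and IDS, in contrast, fell by 0.47 and 0.41. ACP5, the tartrate-resistant acid phosphatase, was outside the list and rose from 158, 144 and 119 to 502, 534 and 528 (1.90, SE 0.14). The MiT factor genes themselves moved little. TFEB was not called (0.00, SE 0.13), TFE3 fell by 0.27, and MITF rose (0.24, SE 0.08) with a call that 3 of the 6 fits without 1 library lost. In the direct comparison 19 of the 50 tested lysosomal genes were higher and 10 lower in shARNT.

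The CLEAR core TCACGTGA was found in 15.6% of 32 lysosomal promoters, in 1.68% of those of genes tested and in 0.89% of all promoters, and the shorter E-box CACGTG that it contains in 34.4%, 8.80% and 6.49%. The 5 lysosomal promoters that held the core were those of CTSA, GAA, LAMP1, MCOLN1 and ATP6V0D1, which were picked by this letter match and not by the naming rule. The first match of 3 of them is printed with the core in capitals, for CTSA at chr20:45891298-45891327, MCOLN1 at chr19:7522571-7522600 and GAA at chr17:80101493-80101522.
CTSA: ggcgccggagtTCACGTGActcgtacacat
MCOLN1: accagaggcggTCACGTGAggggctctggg
GAA: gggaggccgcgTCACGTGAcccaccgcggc
The genes with this core did not share a direction. CTSA, a protective protease, was 0.29 (SE 0.05), the calcium channel gene MCOLN1 0.37 (SE 0.08) and the pump subunit ATP6V0D1 0.50 (SE 0.05), all called higher. GAA, the glycogen-degrading glucosidase, was called lower (−0.19, SE 0.08), and LAMP1 was not called (0.07, SE 0.06).

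Many antioxidant genes were called higher. Of 21 tested targets of NRF2 (NFE2L2), which detoxify oxidants and electrophiles, 15 were higher and 1 lower, with a median of 0.36. With the regulators of the list counted too, 17 of 24 were higher, the median was 0.20, and 14 to 16 were called higher without 1 library. HMOX1, the haem-degrading oxygenase, was counted at 352, 369.9 and 371 in shControl, 845, 859 and 699.7 in shARNT and 402, 397 and 502 in shBMAL1. All shARNT values exceeded those of the 6 other libraries (1.14, SE 0.11, against shControl and 0.89, SE 0.12, against shBMAL1). The aldo-keto reductases AKR1C1 (1.48, SE 0.24) and AKR1C3 (1.22, SE 0.10) rose, and NQO1 rose from 3547 ± 243 to 4737 ± 238. The single lowered member was SLC7A11, which ATF4 also drives. NFE2L2 itself rose by 0.20 (SE 0.06) and its inhibitor KEAP1 by 0.21 (SE 0.06). Against shBMAL1, 13 of the 21 targets were higher in shARNT and 2 lower.

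Of 9 tested iron genes 4 were higher and 1 lower. TFRC, the transferrin receptor, fell from 19973, 20707 and 19186 to 14293, 14517 and 14957 (−0.45, SE 0.05), and FTL, the ferritin light chain, rose from 26834, 24442 and 22882 to 38514, 36929 and 35528 (0.58, SE 0.06). NCOA4, the cargo receptor that delivers ferritin to the lysosome, rose by 0.38. FTL was also higher than in shBMAL1 (0.64, SE 0.07), and TFRC was lower there by a small margin (−0.12, SE 0.06, adjusted p 0.093). Of 6 tested metallothionein genes and regulators, 3 were lower and 2 higher. The metal-binding MT2A, MT1X and MT1E fell by 0.41, 0.40 and 0.33, with near-identical family members among which reads may be split.

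Enzymes that cross-link and hydroxylate collagen were lowered, with 9 of 12 lower, 1 higher and a median of −0.45. LOX of this list is also among the secreted HIF targets, and the collagen hydroxylase genes P4HA1 and P4HA2 are among the intracellular ones. LOX, a lysyl oxidase, fell from 506, 571 and 502 to 191, 181 and 155 (−1.58, SE 0.13). LOXL2 of the same family was counted at 30309.8, 31206 and 28421 in shControl, 15448, 13501 and 13959.6 in shARNT and 29750.0, 25135 and 29781 in shBMAL1. LOXL2 was thus lower in shARNT than in both other groups (−1.06, SE 0.06, and −0.98, SE 0.08, adjusted p 7.11e-34). LOXL1 was low in both knockdowns, at 618 ± 31.3 in shARNT and 601 ± 11.9 in shBMAL1, from 1252 ± 64.7. Collagen chains gave 8 of 16 lower and 1 higher, with COL6A3 (−0.74, SE 0.06) and COL7A1 (−0.63, SE 0.06) lowered and COL6A1 raised (0.57, SE 0.07). The lower chains numbered 5 without shControl replicate 3, shARNT replicate 2 or shARNT replicate 3.

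Genes of matrix turnover were divided, with 6 of 18 lower and 6 higher. PLAU, the urokinase that activates plasminogen, fell by 0.86. MMP15, a membrane-bound protease, rose from 81.5, 85.0 and 90.0 to 247, 244 and 225, against 88.7 ± 10.3 in shBMAL1. The collagenase MMP13 rose to 576 ± 38.5 from 170.3 ± 12.1, and stood far higher in shBMAL1, at 4917 ± 157. The adhesion gene CDH6, a kidney cadherin, rose from 13711, 14457 and 13453 to 28923, 28741 and 26226 (1.01, SE 0.05), FN1 (fibronectin) rose by 0.47, and the integrin subunits ITGA2 and ITGA5 fell by 0.72 and 0.57. Of 17 tested integrins 7 were lower and 3 higher, with 4 lower without shControl replicate 3 or shARNT replicate 3.

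Several ligands and growth signals fell, among which F3 and TGFA also belong to the secreted HIF targets counted above and CCND1 to the intracellular ones. F3, tissue factor, the trigger of coagulation, was counted at 2285, 2064 and 2233 in shControl and 558, 537 and 519.8 in shARNT (−2.02, SE 0.08). PDGFB, a growth factor for pericytes, fell from 556, 532 and 596 to 157, 137 and 140.1 and was lower than in shBMAL1 (−1.30, SE 0.16). TGFA, a ligand of the EGF receptor, fell by 0.77 and the insulin receptor substrate IRS2 by 0.80. Among 21 tested receptor tyrosine kinase genes and ligands, 9 were lower and 3 higher. CCND1, cyclin D1, fell from 9033, 9105 and 8955 to 5273, 5149 and 4574 (−0.85, SE 0.06), and its partner kinase gene CDK6 rose by 0.67. ID3 and ID1, inhibitors of bHLH factors and targets of BMP signalling, rose by 1.08 and 0.84, to 1274 ± 74.3 and 2155 ± 107. BCL2L11 (BIM), which promotes apoptosis, rose from 1391, 1315 and 1217 to 2293, 2199 and 2287 (0.79, SE 0.07).

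Proliferation genes were called in part. Of 37 tested genes of G2 and mitosis, 16 were lower and 4 higher, a lower count that fell to 10 without shARNT replicate 1, with TOP2A (−0.56, SE 0.05) and UBE2C (−0.45, SE 0.06) leading. Against shBMAL1, 17 of the 37 were higher in shARNT and 4 lower, and the lower ones numbered 2 without shARNT replicate 1 or 3 or shBMAL1 replicate 2 or 3, and 6 without shBMAL1 replicate 1. Genes of DNA replication gave 8 of 36 lower and 2 higher, with a median of −0.017 and 5 lower without shControl replicate 2 or shARNT replicate 3. Their lower share was near the 19.0% of all genes tested, and their higher share was under the 16.5%. MYC fell by 0.24, and FOXM1, the activator of mitotic genes, was not called (0.03, SE 0.05). Cytosolic ribosomal protein genes gave 39 of 79 lower and 0 higher, with a median of −0.17 and 30 to 39 calls when 1 library was left out. RPL10 was among the most lowered (−0.40, SE 0.05), and none of the 79 moved by 2-fold. The direct comparison called 32 of the 79 lower in shARNT and 5 higher, or 3 without shARNT replicate 1 or 2 or shBMAL1 replicate 2 or 3. Ribosomal protein genes have many near-identical processed copies, between which the counting could split reads.

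Respiratory chain genes were called higher in part. All 13 mitochondrially encoded subunits had a log2 fold change above 0, with a median of 0.43, and 11 were called higher. That count was 3 without shControl replicate 2 or shARNT replicate 3, 4 without shControl replicate 1, 6 without shARNT replicate 1 or 2, and 13 without shControl replicate 3. ND3, a complex I subunit, was the most raised, with 16277, 15803 and 20734 in shControl and 24420.2, 25075 and 29667 in shARNT (0.59, SE 0.16). These genes move with the share of mitochondrial reads given above, and its part in them was not tested. Of 80 nuclear-encoded subunits and regulators 26 were higher and 4 lower, with a median of 0.08, and 16 were higher without shARNT replicate 2. COX7C, a subunit of cytochrome c oxidase, was counted at 345, 369.9 and 422 in shControl and 946, 981 and 910.4 in shARNT (1.32, SE 0.10). The member lowered the most, NDUFA4L2, a known HIF target named after its values were seen, went from 28.2, 18.0 and 20.2 to 5.85, 11.8 and 9.94 counts (−1.27, SE 0.57). PPARGC1A (PGC-1α), the coactivator of mitochondrial biogenesis, rose from 50.3, 61.0 and 36.4 to 156, 179.7 and 93.4, and was higher still in shBMAL1 (−1.53, SE 0.18). The nuclear factors NRF1 and TFAM were not called.

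Lipid genes split. Cholesterol synthesis and uptake gave 13 of 25 lower and 1 higher with a median of −0.17, and against shBMAL1 8 were lower in shARNT and 8 higher. SREBF2, the activator of this pathway, fell by 0.29 (SE 0.05). Fatty acid genes gave 6 of 23 lower and 5 higher, with HILPDA, a HIF target that blocks lipolysis, lowered (−0.92, SE 0.17). CPT1A, the gate of mitochondrial fatty acid oxidation, was raised (0.55, SE 0.09) and SREBF1 rose by 0.27. CPT1A was higher than in shBMAL1 as well (1.38, SE 0.11), and 16 of 24 fatty acid genes were higher and 3 lower in that comparison.

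Complement and liver-type plasma protein genes rose in part. Of 17 complement genes 6 were higher and 1 lower, with a median of 0.22. C1S, a protease of the classical pathway, was counted at 155, 153 and 105 in shControl, 593, 646 and 496 in shARNT and 116, 93.7 and 77.4 in shBMAL1. C1S was higher in shARNT than in shBMAL1 by the direct test (2.60, SE 0.17), against the direction of its list, in which 8 of 17 genes were lower in shARNT than in shBMAL1 and 2 higher, with a median of −0.61. C3 rose by 1.10 (SE 0.09). Of 9 tested plasma protein genes 4 were higher and 1 lower, with a median of 0.37, and with the regulators of the list 7 of 13 were higher. The lowered gene was SERPINA1 (alpha-1 antitrypsin), at 5538, 5453 and 5689 in shControl, 2492, 2594 and 2381 in shARNT and 11012, 10116 and 12448 in shBMAL1. SERPINA1 thus lay below the controls in shARNT and above them in shBMAL1, with a direct difference of −2.17 (SE 0.08). The direct comparison placed 10 of 15 tested plasma protein genes lower in shARNT.

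Clock genes and AHR targets belong to other arms of the family. Of 12 clock repressors and outputs 7 were higher and 1 lower, with a median of 0.39. CIART, a repressor of the clock, rose from 294, 319.9 and 344 to 581, 590.2 and 589 (0.88, SE 0.11) and stayed at 287 ± 33.4 in shBMAL1. DBP, an output factor, rose by 1.05 (SE 0.25), and NR1D2, a repressor of BMAL1, by 0.52 (SE 0.09). In the shBMAL1 libraries NR1D2 lay at 748, 1037 and 898 against 1493, 1204 and 1369 in the controls, and 8 of 13 clock genes were higher in shARNT by the direct test, with 3 lower. Of 6 tested AHR targets, TIPARP fell (−0.43, SE 0.07) and CYP1B1 and NQO1 rose. CYP1B1, a monooxygenase, went from 2599, 2856 and 2642 to 4311, 4232 and 3934 (0.63, SE 0.06) and was 0.59 (SE 0.07) against shBMAL1.

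The most changed genes not yet described were, but for OGDHL, in none of the lists. ALOX5AP, an accessory protein of leukotriene synthesis, fell from 153, 252 and 141 to 29.2, 30.4 and 39.8 (−2.45, SE 0.28), was low in shBMAL1 too, at 64.5, 54.4 and 33.3, and did not pass the direct test (−0.61, SE 0.36, adjusted p 0.206). SLC14A1, a urea transporter, rose from 27.2, 29.0 and 13.1 to 178, 181 and 127 (2.81, SE 0.29), with 11.2 ± 8.01 in shBMAL1. NPR1, the receptor of atrial natriuretic peptide, rose to 192, 119.8 and 153 from 34.2, 27.0 and 21.2 and stood at 174 ± 10.8 in shBMAL1. QPCT, a glutaminyl cyclase, the endocytic adaptor STON2, the small GTPase RASL11A and the long non-coding RNA KCCAT211 rose by 2.16, 2.00, 1.87 and 2.37 on the log2 scale. Each of these 4 was also higher in shARNT than in shBMAL1, by 1.42, 0.98, 0.74 and 0.75. OGDHL, a relative of oxoglutarate dehydrogenase and a member of the citric acid cycle list, rose by 2.14 and the uncharacterised LOC105370065 fell by 2.39, and neither passed the direct test.

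The remaining lists are given by their counts. DNA-damage and G1 regulators gave 4 of 24 lower and 10 higher, among them ZMAT3 (0.63, SE 0.10) and SESN1 (0.60, SE 0.11), both p53 targets, and 6 were called higher without shControl replicate 1 or shARNT replicate 3. Oxygen-sensing enzymes and VHL gave 2 of 5 lower and 0 higher. Cytosolic heat shock genes gave 1 of 18 lower and 3 higher, with the small chaperone CRYAB raised by 1.84 (SE 0.28). TGF-β genes gave 6 of 23 lower and 7 higher, YAP targets and regulators 5 of 17 and 2, and epithelial and mesenchymal markers with their regulators 3 of 16 and 5. Citric acid cycle and glutamine genes gave 7 of 28 lower, or 4 without shControl replicate 2 or shARNT replicate 3, and 7 higher, and the BCL2 family 1 of 16 and 1. Kidney lineage genes gave 2 of 12 lower and 2 higher, with MME (neprilysin) lowered from 1291 ± 84.0 to 575 ± 21.9 and lower than in shBMAL1 (adjusted p 2.14e-25).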

How the data were processed

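RNA of 786-O cells was sequenced in 9 libraries, 3 per hairpin, grouped by their labels. The deposited values were estimated counts, total reads per gene that the authors exported from their alignments. The study's methods name GRCh37 with SeqMan NGen and ArrayStar, whereas the submitters' processing notes list STAR, DESeq2 and hg38, so the genome build behind the counts is unsettled and gene coordinates of the table were not used. The gene annotation and strand setting were not given in the sources used here, so genes that overlap or have near-identical copies are uncertain. A value of 0.009 stood for 0 and was set to 0, fractional values (6.14% of the others) were rounded to whole numbers, and 53 rows that repeated a gene name were added to the first, leaving 38021 genes. The 28 rows whose symbol had become a date stayed in the fits unnamed.

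DESeq2 (version 1.42.0 in R 4.3.3) was fitted to the 6 libraries of each comparison, with median-of-ratios size factors, the two-sided Wald test, independent filtering and Benjamini-Hochberg adjustment over all genes tested, at the threshold of 0.1 that the study used. Normalised read counts use size factors over all 9 libraries and are given per library in the order of replicates 1, 2 and 3, or as mean ± SD (n = 3). Libraries of 1 group differed by more than sampling noise (chi-square per degree of freedom 7.58 to 13.5) and all were kept. Replicate numbers did not pair the libraries, with correlations of −0.17, −0.13 and 0.10 between same-numbered libraries.

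The comparison, its markers and the 45 gene lists were chosen with earlier results of these data known, so lists are described by counts and medians beside those of all genes tested, without set tests. Named genes were the markers, the bHLH-PAS family, the 10 most lowered and 10 most raised genes with a mean of at least 50 counts and groups that did not overlap, and up to 3 called members in each direction plus the regulators of each list. Promoters (250 bases before the start) came from RefSeq on GRCh38.p14 and were searched on both strands. The scripts were tested on simulated data. Alternatives were edgeR (version 4.0.16), TMM scaling, a count filter, stricter thresholds, a fit of all 9 libraries, a replicate block, a GC correction and leaving out each library. The hairpin sequence was not used here. Some genes that the rule names are not reported here.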

Additional observations from a re-analysis of the deposited data

How the results depend on the processing

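Over 245 named genes and 15 alternatives each, 3378 of 3675 values kept their side of the threshold, 290 (125 genes) lost a call, 7 (5 genes) gained one and 0 reversed, and none of the 20 list medians recomputed changed sign, the lost calls including every change under 1.5-fold when that size was required. Of 90 counts of list members called in 1 direction, 9 counts over 4 and 21 counts of 4 or fewer moved by more than 1.5 times when 1 library was left out, and the former are given beside their results. Of the 90 such counts against shBMAL1, 20 moved as far. Requiring 1.5-fold left 1200 genes changed, 711 lower and 489 higher, and 2064 different from shBMAL1, 1368 lower and 696 higher in shARNT. The share of calls that were lower went from 53.55% to 49.88% with the GC correction, and against shBMAL1 from 48.98% to 66.28% with the 1.5-fold minimum and 50.02% with edgeR, so the balance of calls turned in these cases. edgeR called 6027 genes changed. With the replicate number as a block, DESeq2 called 4150 genes changed and 5388 different from shBMAL1, and since the numbers did not pair the libraries this is given only as a value. With TMM size factors the median of intracellular HIF targets was −0.44, and with all 9 libraries in 1 fit that of plasma proteins was 0.49.

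Correcting the libraries for the GC content of their genes moved the median of all genes to 0.018. It moved the medians of secreted HIF targets to −1.07, glycolysis to −0.16, interferon signalling to −0.17, MHC class I to −0.21, cholesterol to −0.13, the whole ATF4 list to −0.46 and clock outputs to 0.42, and with the replicate block added the first 6 were −1.07, −0.16, −0.17, −0.21, −0.12 and −0.46. The cause of these shifts was not tested.

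Leaving out 1 library, the median ran from −1.20 to −1.07 in secreted and −0.43 to −0.36 in intracellular HIF targets, −0.24 to −0.16 in glycolysis, −0.68 to −0.62 in interferon effectors, −0.28 to −0.23 in MHC class I, −0.42 to −0.27 in the cytokine list, −0.49 to −0.34 in immediate early genes, −0.57 to −0.48 in the whole ATF4 list, −0.18 to −0.14 in cholesterol genes, 0.055 to 0.125 in nuclear respiratory genes and 0.27 to 0.43 in clock outputs. The total of genes changed ran from 4174 to 4508. The difference in mitochondrial share ran from 1.47 to 2.31 percentage points, in fits chosen after seeing the data. With 3 libraries a group and 1 hairpin, small changes near the threshold are the least certain.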

Other observations

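Of 12 genes of prostaglandin and leukotriene metabolism, picked after the values of ALOX5AP had been seen, 5 were lower (ALOX5AP among them), 1 higher, 5 not called and 1 not tested, beside 19.0% lower and 16.5% higher over all genes tested. PTGS1, the constitutive cyclooxygenase, was counted at 181, 174 and 175 in shControl and 40.9, 39.3 and 27.8 in shARNT (−2.29, SE 0.24, adjusted p 3.39e-20). PTGES, the inducible prostaglandin E synthase, went from 872, 793 and 673 to 159.8, 189.5 and 130.2 (−2.28, SE 0.14), so that the groups lay far apart in both genes. PLA2G4A, which releases arachidonic acid from membranes, fell by 1.03 (SE 0.20) and the inducible cyclooxygenase PTGS2 by 0.52 (SE 0.15). HPGD, the enzyme that inactivates prostaglandins, rose from 125, 169.9 and 189 to 309.9, 377 and 308 (1.04, SE 0.17). PTGES2, PTGES3, PTGIS, TBXAS1 and LTA4H were not called, and ALOX5 had too few counts to be tested against shControl. In the shBMAL1 libraries PTGS1 stood at 113 ± 18.9, PTGES at 545 ± 94.8 and HPGD at 488 ± 45.2. The direct differences of shARNT from shBMAL1 were −1.65 (SE 0.28, adjusted p 4.83e-08), −1.77 (SE 0.16, adjusted p 3.17e-25) and −0.56 (SE 0.13, adjusted p 1.76e-04).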
